A study of Mus musculus with 4 samples.

Results

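The RAS, RAF, MEK and ERK genes Hras, Nras, Araf, Braf, Map2k1, Map2k2 and Mapk3 were read from 4 Agilent 2-colour arrays as every non-control probe that carried the gene's name in the files or the RefSeq transcript of that gene. These were 15 of the 41174 probes (7 of 27669 named genes or transcripts), and all 15 were among the 26545 probes tested. The samples were B16-F10 cells, a cultured mouse melanoma line. In the Cy5 channel the cells had received an agonist antibody against mouse TIM3, an immune checkpoint receptor, raised in goat and polyclonal. In the Cy3 channel cells of the same passage had received unspecific goat IgG, and both were given at 15 ug/ml for 2 h. The arrays are replicates 1 to 4, from passages 14, 16, 18 and 19, so that biological replicates here are passages of a single line and p-values measure the spread between them. The treatment protocol of the antibody sample is not repeated for replicate 3, whose sample name gives the antibody. No array had its dyes exchanged, so the effect of the dye on a probe and that of the antibody cannot be told apart.

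RAS proteins are membrane-bound switches that are active while they hold GTP. Active RAS recruits RAF kinases, RAF phosphorylates the kinases MEK1 and MEK2, and these phosphorylate ERK1 and ERK2, which act on other kinases and on transcription factors. The cascade is known as a driver of melanocyte growth, and activating mutations of human BRAF and NRAS are frequent in melanoma. Its signal is carried by protein phosphorylation, which was not measured; the arrays measured transcripts.

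The 2 Nras probes, the 2 Araf probes and the 2 Mapk3 probes are those on which the results turn, and the first 30 of the 60 bases of each are given 5′ to 3′ as the array files list them. Capitals mark the letters that both Mapk3 probes hold.
Nras A_51_P396273: actaatcagaagggggaacaaacatttgct
Nras A_52_P649296: cattctgttgacaacagtttcttatactct
Araf A_51_P301259: tatctccaatggctgtgactcagtgcaagg
Araf A_52_P673489: tagttttgcataatatataaaaagtaaggt
Mapk3 A_51_P158628: tcTTATCTACCCTTGCTAGCCCCGGCTCTG
Mapk3 A_52_P243249: tgtctTTATCTACCCTTGCTAGCCCCGGCT
The Mapk3 probes shared a run of 55 bases, which began at base 3 of A_51_P158628 and at base 6 of A_52_P243249, and so they are not independent readings of the transcript. Araf probe A_52_P673489 stood apart in composition, with 20% G and C over its 60 bases. The other 5 probes shown held 40% to 55%, and the median of all array probes was 40% (5th to 95th percentile, 31.7% to 55%).

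In the antibody channel Mapk3, at both of its probes, and Nras and Araf, at 1 of 2 probes each, read lower than in the IgG channel, by 1.19-fold at most. The second Araf probe read higher. These are log2 ratios of Cy5 over Cy3 after loess, which fits and subtracts each array's trend of ratio with intensity. Probes above a log2 intensity of 16 still had a median ratio of 0.34. A value below 0 means less signal with the antibody. With arrays centred on their median in place of loess, the 4 lower probes had ratios above 0. That setting moved the median of all tested probes to 0.15. Relative to it Nras was at -0.10, Mapk3 at -0.0095 and 0.04, and Araf at 0.11. After loess no probe of Hras, Braf, Map2k1 or Map2k2 passed the test. In numbers, 5 of the 15 probes passed (33.3%; limma, adjusted p under 0.05 over all tested probes), close to the 27.8% of all tested probes that did. Of these, 1 was higher and 4 were lower. The lower probes were 26.7% of the members, beside 13.6% of all tested probes that were lower and 14.2% that were higher. Of the 4 lower probes, 2 were the overlapping Mapk3 probes, which are not independent readings. Among all tested probes as bright as these 4, the share called lower was 19.3% (mean log2 intensity 11 to 12, which holds Nras A_51_P396273 and both Mapk3 probes) and 21.2% (12 to 13, which holds Araf A_51_P301259).

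**Figure D1:**
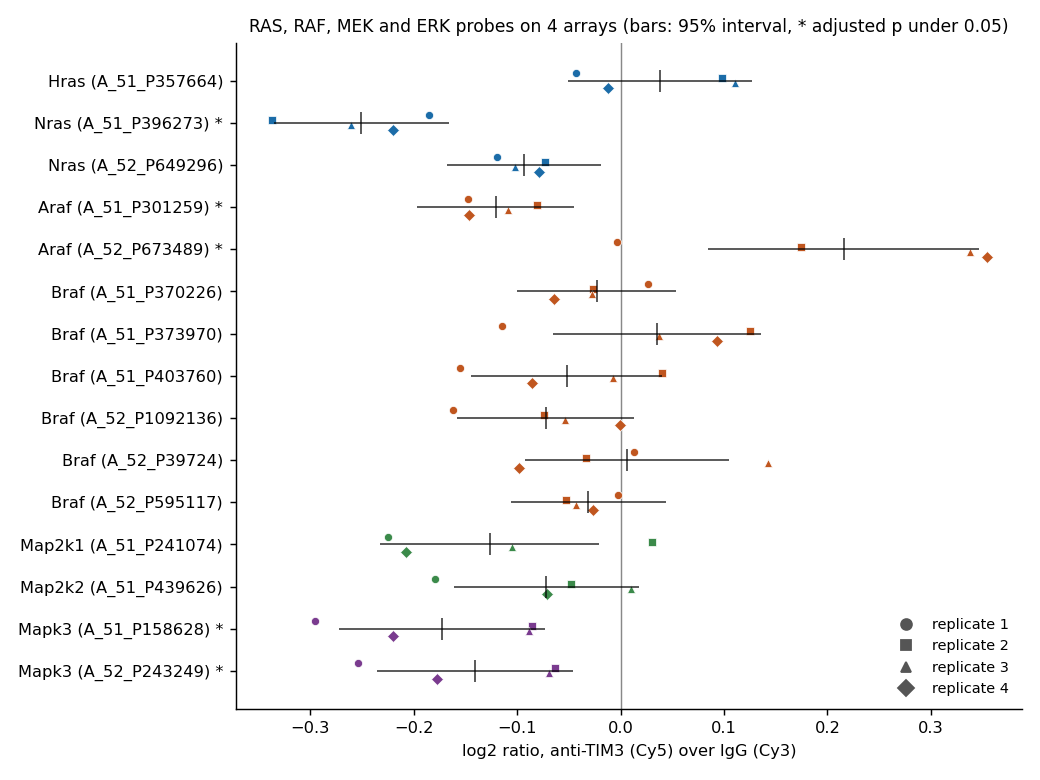
Log2 ratio of anti-TIM3 (Cy5) over IgG (Cy3) for each of the 15 probes on each of the 4 arrays (points, shaped by replicate), with the mean (tick) and 95% interval of the limma fit (bar), after loess; colours separate RAS, RAF, MEK and ERK. All 4 points of the starred Nras, Mapk3 and first Araf probes lie below 0, which holds for loess and not for median centring, and those of the second Araf probe run from -0.0038 to 0.35.

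After loess, 11 of the 15 probes had a mean log2 ratio below 0, while with median centring, which moved the median of all tested probes to 0.15, 9 of the 15 lay above that shift and 6 below it. The members' median after loess was -0.07, against 0.0060 for all tested probes. On all 4 arrays 7 of the 15 (46.7%) lay below 0, beside 22.9% of all tested probes, and 0 lay above 0 on all 4, beside 24.7%. These 7 were both Nras probes, both Mapk3 probes, which overlap, 1 Araf probe and 2 Braf probes. Replicate 1 gave the lowest ratio of the 4 for 11 of the 15 probes, beside 39.9% of all tested probes. The members' median was -0.15 on that array and between -0.08 and -0.04 on the others. Replicate 1 also had the brightest processed signals (75th percentile in Cy3, 879 against 698 to 720), and the part of brightness in its lower ratios was not tested.

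**Figure D2:**
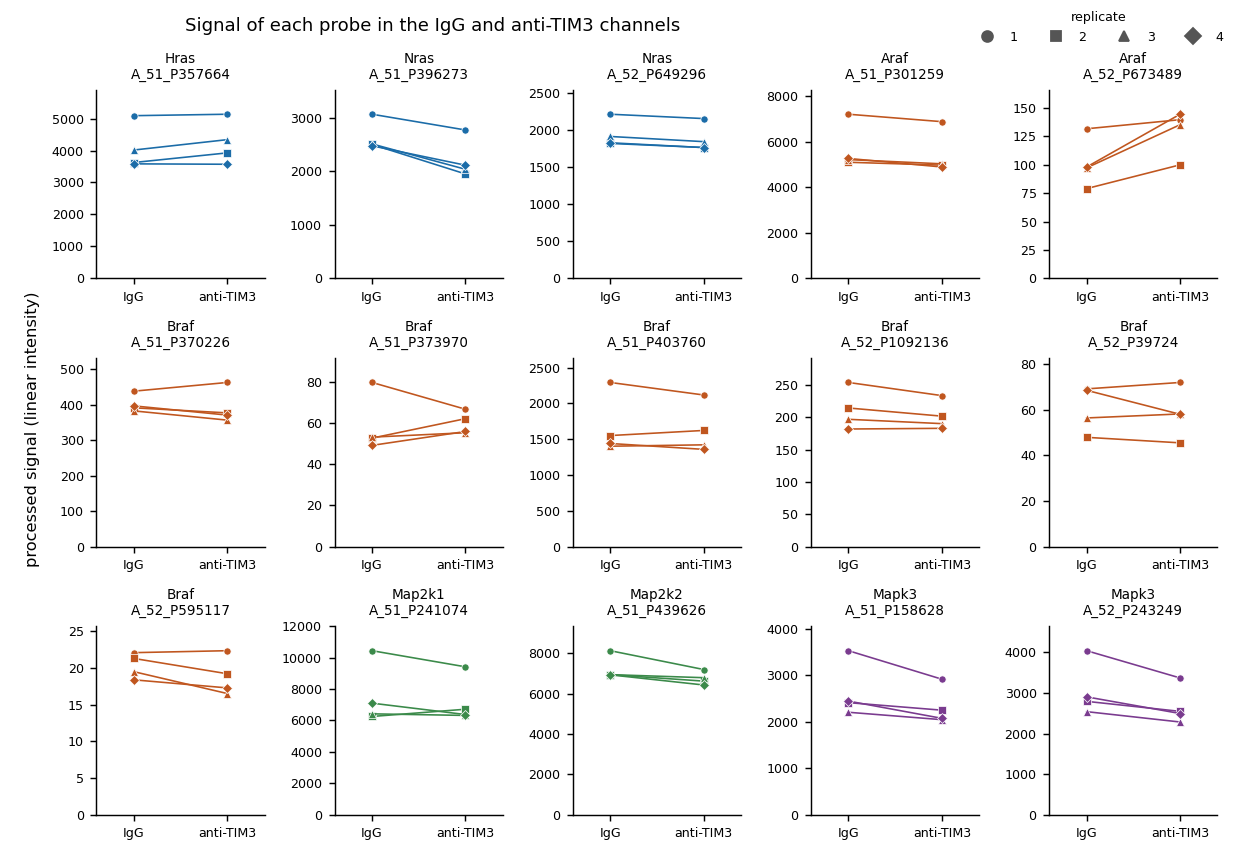
Processed signal of each of the 15 probes (linear intensity, axes from 0, each panel on its own scale) in the IgG and anti-TIM3 channels, with a line joining the channels of each array and points shaped by replicate. Replicate 1 has the highest IgG signal in all 15 panels, and the line of Nras probe A_51_P396273 goes down on all 4 arrays.

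On every array both channels read Hras and Nras well above background. Nras encodes the RAS protein that is mutated most often in human melanoma. Its probe A_51_P396273 (mm7 chr3:102860333-102860392, plus strand) had processed signals of 3062 with IgG and 2768 with the antibody on replicate 1, 2498 and 1947 on replicate 2, 2507 and 2035 on replicate 3, and 2472 and 2111 on replicate 4. The antibody channel was the dimmer on each array. The log2 ratios after loess were -0.18, -0.34, -0.26 and -0.22 on replicates 1 to 4. No ratio came near 0, and their mean was -0.25 ± 0.07 (SD, n = 4; limma, adjusted p = 0.00249), a fall of 1.19-fold which became a ratio of 0.05 with median centring, or -0.10 relative to the shift of all probes. It was the only member probe that passed in all of these: the processed signals that the authors deposited (-0.26, limma, adjusted p = 0.0285), each replicate left out in turn (adjusted p from 0.00657 to 0.0111), and the ratios freed of trends on intensity and base counts (-0.20, adjusted p = 0.00803). By absolute ratio it ranked 1362 among the 26545 tested probes, and 0.25 was the largest absolute ratio of any member. In bulk RNA, fewer cells with a transcript and less of it per cell cannot be told apart, here and for each gene that follows.

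The other Nras probe, A_52_P649296, lies 1698 bases upstream of the first by start position (chr3:102858635-102858694). It gave log2 ratios of -0.12, -0.07, -0.10 and -0.08, all below 0 and within a narrow range. Their mean of -0.09 ± 0.02 (SD, n = 4) did not pass (limma, adjusted p = 0.0615; 95% interval, -0.17 to -0.02, before adjustment). The 2 probes differed by -0.16 ± 0.08 (SD over 4 arrays), the first being the lower on all 4, with an exact two-sided sign-flip p of 0.125, the smallest that 4 arrays can give (0.125 after adjustment over 3 probe pairs). The exon in which either probe lies is not stated in the files.

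Hras, the other RAS gene read here, had 1 probe (A_51_P357664, chr7:137608660-137608719, minus strand). Its log2 ratios were -0.04, 0.10, 0.11 and -0.01, with replicates 2 and 3 above 0 and replicates 1 and 4 below. The mean was 0.04 ± 0.08 (SD, n = 4; limma, adjusted p = 0.487; 95% interval, -0.05 to 0.13). Replicates 1 and 4 also resembled each other over all tested probes (Pearson's r = 0.707 between them and 0.746 between 2 and 3, against 0.523 to 0.604 for the other pairs; probes are not independent).

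Araf encodes A-RAF, the RAF kinase of lowest basal activity, from the X chromosome. Its 2 probes passed in opposite directions. Probe A_51_P301259 (chrX:19293486-19293545, plus strand), whose transcript is in RefSeq, had log2 ratios of -0.15, -0.08, -0.11 and -0.15. All arrays lay below 0 and the mean was -0.12 ± 0.03 (SD, n = 4; limma, adjusted p = 0.0282), while with median centring it was 0.27. The call was lost in the authors' processed signals (-0.07, adjusted p = 0.205), with a smaller constant added at background correction (a normexp offset of 10 in place of 50; adjusted p = 0.0535) or without any 1 of the replicates (adjusted p from 0.0611 to 0.0961).

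Probe A_52_P673489 lies 7870 bases upstream on the same strand (chrX:19285616-19285675), and the files name it Araf through a cDNA clone that was matched to no RefSeq transcript. It was dim: its processed signals were 132 with IgG and 140 with the antibody on replicate 1, 79.0 and 99.9 on replicate 2, 97.3 and 135 on replicate 3, and 98.0 and 144.5 on replicate 4. The log2 ratios were -0.0038, 0.17, 0.34 and 0.35. Replicate 1 stood at 0 and the other arrays above it, with a mean of 0.22 ± 0.17 (SD, n = 4; limma, adjusted p = 0.0246), and 0.36 in the authors' processed signals (adjusted p = 0.0454). The constant of 50 draws the ratios of dim probes towards 0. The call was lost with an offset of 10 (0.28, adjusted p = 0.0503), without replicate 3 (adjusted p = 0.0726) or replicate 4 (adjusted p = 0.0976), and in the detrended ratios (0.13, adjusted p = 0.0909). Within arrays the first probe minus the second was -0.34 ± 0.17, below 0 on all 4 (exact sign-flip p = 0.125, the smallest possible; 0.125 adjusted over the 3 pairs).

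Braf encodes B-RAF, the RAF kinase with the strongest activity towards MEK. It had 6 probes along chromosome 6 (minus strand, from 39533784 to 39605925), all named by the files through cDNA clones that were matched to no RefSeq transcript, and none passed. Their mean log2 ratios ran from -0.07 to 0.04, and all their 95% intervals lay between -0.16 and 0.14, or 1.12-fold lower and 1.099-fold higher. Probes A_52_P595117, A_52_P39724 and A_51_P373970 were dim, with processed signals from 16.5 to 79.7. The constant added at background correction draws such ratios towards 0, so the intervals of these probes do not bound the change. In the authors' processed signals A_51_P373970 ran from -0.26 to 0.24 over the arrays and A_52_P39724 from -0.24 to 0.06. There A_52_P595117 averaged -0.11. Probe A_51_P403760 had ratios of -0.16, 0.04, -0.0073 and -0.09, on both sides of 0, and a mean of -0.05 ± 0.09 (SD, n = 4; adjusted p = 0.358). Probe A_52_P1092136 had the lowest mean (-0.07 ± 0.07, SD, n = 4; adjusted p = 0.175) and was below 0 on each array, from -0.16 on replicate 1 to -0.00069 on replicate 4. Among the alternatives it passed with the detrended ratios alone (-0.12, adjusted p = 0.0256). Probe A_51_P373970 had the highest mean, 0.04 ± 0.11 (SD, n = 4; adjusted p = 0.577), with replicate 1 at -0.11 and the others between 0.04 and 0.12. Probe A_52_P39724, whose 60 bases are placed over 2404 bases of the genome, averaged 0.0061 ± 0.10, and A_51_P370226 averaged -0.02 ± 0.04. Probe A_52_P595117, placed over 394 bases, was the member probe not well above background in Cy3 (on 0 of 4 arrays, and on 4 of 4 in Cy5), with a mean of -0.03 ± 0.02 (SD, n = 4; adjusted p = 0.502).

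The MEK genes Map2k1 and Map2k2 encode MEK1 and MEK2, the kinases that activate ERK. Map2k1 was read by A_51_P241074 (chr9:64214568-64214627, minus strand). Its log2 ratios were -0.23, 0.03, -0.10 and -0.21, so that replicate 2 was above 0 and the others below. The mean was -0.13 ± 0.12 (SD, n = 4), and it did not pass (limma, adjusted p = 0.0711; 95% interval before adjustment, -0.23 to -0.02). Without replicate 2 it was -0.18 and passed (adjusted p = 0.0276), and the authors' processed signals gave -0.06 (adjusted p = 0.492).

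Map2k2 was read by A_51_P439626 (chr10:80914572-80915638, plus strand), whose 60 bases are placed over 1067 bases. The log2 ratios were -0.18, -0.05, 0.01 and -0.07, with replicate 1 the lowest and replicate 3 just above 0. The mean was -0.07 ± 0.08 (SD, n = 4; limma, adjusted p = 0.198; 95% interval, -0.16 to 0.02), and it was 0.02 in the detrended ratios.

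Mapk3 encodes ERK1, a terminal kinase of the cascade. Its probe A_51_P158628 (chr7:122862022-122862079, plus strand) was printed in 10 spots on each array, of which 1 spot on 1 array was an outlier and left out. The log2 ratios were -0.30, -0.09, -0.09 and -0.22 on replicates 1 to 4. Spots on an array varied with an SD of 0.02 to 0.04, less than the arrays did (SD 0.10), and on each array the highest spot was still below 0. Replicates 1 and 4 were lower than replicates 2 and 3. The mean was -0.17 ± 0.10 (SD, n = 4; limma, adjusted p = 0.0203), a 1.13-fold fall after loess that read 0.14 with median centring, or -0.0095 relative to the shift of all probes.

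Probe A_52_P243249 (chr7:122862017-122862076, plus strand), which overlaps the first as the sequences show, gave -0.25, -0.06, -0.07 and -0.18, the same order of arrays. Its mean was -0.14 ± 0.09 (SD, n = 4; limma, adjusted p = 0.0352) after loess and 0.19 with median centring, or 0.04 relative to the shift of all probes. The 2 probes differed by -0.03 ± 0.01 within arrays (exact sign-flip p = 0.125, the smallest possible; 0.125 adjusted over the 3 pairs). Neither call held without replicate 1 (adjusted p = 0.0661 and 0.103) or without replicate 4 (0.0754 and 0.113). In the detrended ratios the means were -0.08 and -0.04 (adjusted p = 0.158 and 0.388). The authors' processed signals gave -0.18 and -0.19 (adjusted p = 0.0533 and 0.0337).

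**Figure D3:**
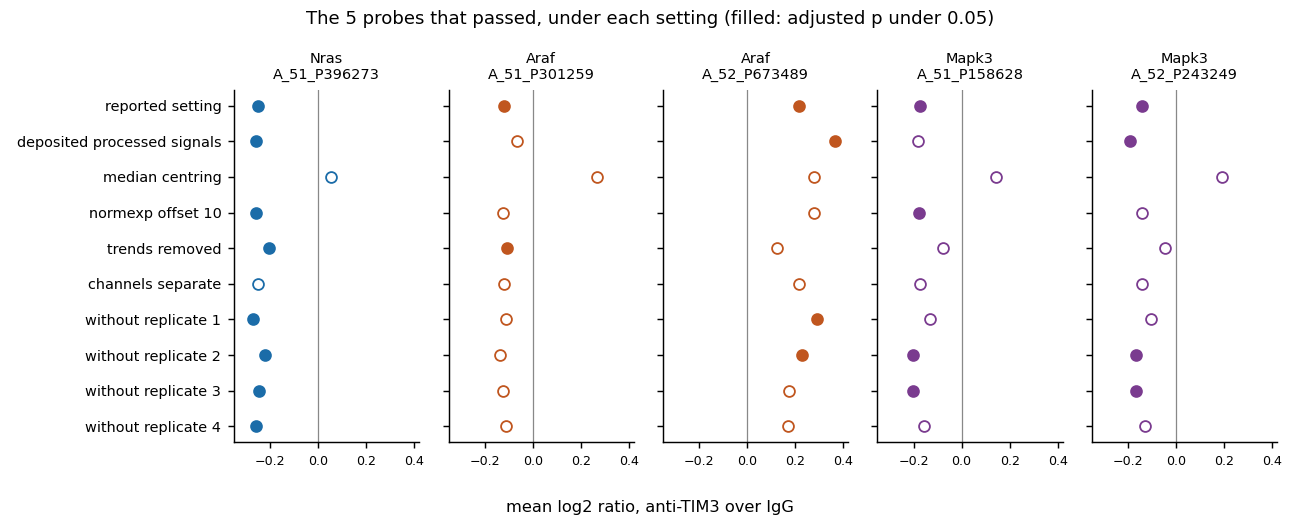
Mean log2 ratio of anti-TIM3 over IgG for the 5 member probes that passed, under the reported setting and 9 others (filled where the adjusted p was under 0.05). The Nras probe stays filled in every setting but median centring, where it is at 0.05, and the separate fit of the channels, and median centring places the Araf and Mapk3 probes above 0. Median centring also moved the median of all tested probes to 0.15.

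Over all tested probes the median ratio fell from 0.02 below a log2 intensity of 8 to -0.04 between 13 and 14, and was 0.34 above 16. After loess the ratios of the 4 lower probes lay below the 25th percentile of probes of like intensity. With median centring they were above 0, beside a median of 0.15 for all tested probes. The part of intensity in the members' ratios was not tested. The ratio of the Nras probe lay beyond the 5th percentile and that of the dim Araf probe beyond the 95th.

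**Figure D4:**
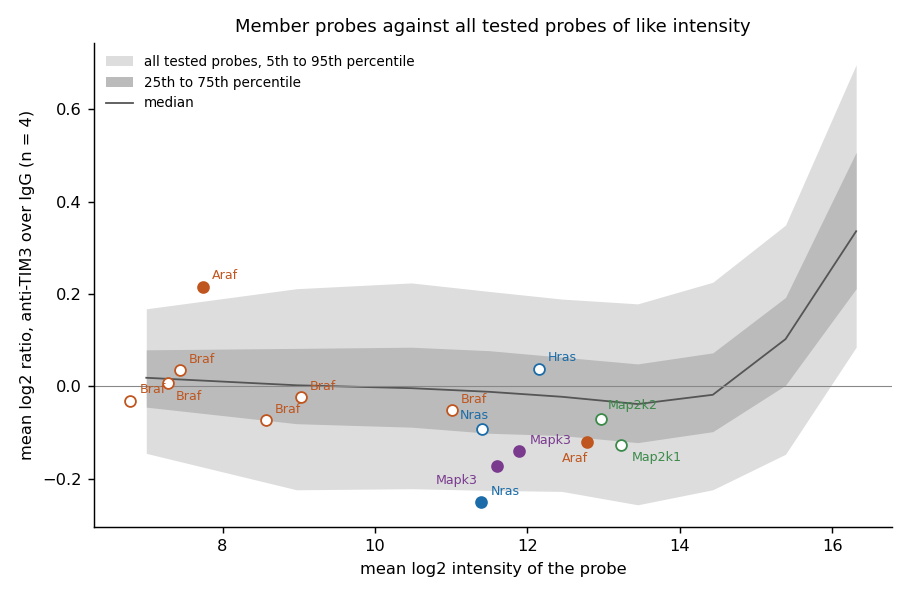
Mean log2 ratio of each member probe (points; filled where the adjusted p was under 0.05) against its mean log2 intensity, over the median (line), quartiles (dark band) and 5th to 95th percentiles (light band) of all tested probes in bins of intensity, after loess. The filled Nras point is at -0.25 and the filled Araf points are at -0.12 and 0.22; with median centring the Nras and lower Araf points would be at 0.05 and 0.27.

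Some genes outside the cascade had nearly the same ratios on the 4 arrays. Among 6485 named probes that passed, those near to Nras A_51_P396273 by root mean square difference over the 4 arrays included Tmem121, a membrane protein gene (0.026), and Lamp2, a lysosomal membrane protein (0.027). Nearest to Araf A_52_P673489 were Sema3e, a secreted semaphorin (0.034), Lpp, a focal adhesion protein (0.040), and Hus1, a subunit of a DNA damage checkpoint clamp (0.041). These likenesses rest on 4 arrays and are a description.

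The related GTPases and kinases of the RAS, RAF and ERK families were 12 further genes, of which 11 were tested. Of these 2 were higher and 4 lower, beside 14.2% higher and 13.6% lower among all tested probes. Their median was -0.04 (all tested probes, 0.0060). The RAL and RAP GTPases, close relatives of RAS, were divided. Rala, a RAL GTPase, was higher (0.19 ± 0.05, SD, n = 4; adjusted p = 0.00587). Its relative Ralb was lower after loess (-0.18 ± 0.02, adjusted p = 0.00515), as were Rap1a (-0.18 ± 0.07, adjusted p = 0.00881) and Rap1b (-0.16 ± 0.05, adjusted p = 0.0131). All of these lay above 0 with median centring. The other Rap1a probe was at 0.04 and the other Rap1b probes ran from -0.11 to 0.10, none of which passed. Rap1b lost its call in the deposited signals (adjusted p = 0.134) and without replicate 3 (0.0568). The counts were 1 and 2 in the deposited signals, 1 and 3 without replicate 2, and 2 and 2 without replicate 3.

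Upstream of RAS, 3 of the 15 tested activators and adaptors passed at their brightest probe, beside 27.8% of all tested probes, with a list median of 0.04. Grb2, Ptpn11 and Crkl did not pass there, and each had 1 other probe that was called higher. Sos1, an exchange factor that loads RAS with GTP, was lower (-0.17 ± 0.07, adjusted p = 0.0132) after loess. With median centring it was at 0.07, where the median of all tested probes was 0.15. The adaptor genes Crk (0.16 ± 0.07, adjusted p = 0.0153) and Frs2 (0.15 ± 0.06, adjusted p = 0.0166) were higher. The other Crk probes ran from -0.02 to -0.0056 and did not pass. Without replicate 4 neither adaptor passed (0.0661 for Crk, 0.0620 for Frs2), without replicate 2 Crk did not (0.0623), and without replicate 3 Frs2 did not (0.0680).

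Of 13 tested genes that turn RAS off, 3 passed at their brightest probe, all of them higher. Among all tested probes 27.8% passed and 14.2% were higher, and the list's median was 0.08. Other probes of Rasa2 (-0.15) and Spred2 (-0.17) were called lower, and that of Nf1 (0.16) higher. Nf1, which encodes neurofibromin, a protein that speeds GTP hydrolysis by RAS, was higher (0.31 ± 0.21, SD, n = 4; adjusted p = 0.0118), though its replicates ran from 0.08 to 0.59 and the deposited signals gave an adjusted p of 0.0536. Dab2ip, another such protein, was higher with little spread (0.18 ± 0.03, adjusted p = 0.00664). Rasa3 was higher at its brighter probe (0.13 ± 0.04, adjusted p = 0.0204) and at -0.23 at the other, which did not pass. That call was lost in the deposited signals (adjusted p = 0.222) and without replicate 2 (0.0756) or replicate 3 (0.0880). The list's count of higher genes was 5 without replicate 1.

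RAS must be prenylated and trimmed to reach the membrane. Of 10 tested genes of this processing 1 passed, beside 27.8% of all tested probes. Rce1, the protease that trims prenylated RAS, was lower after loess (-0.23 ± 0.05, adjusted p = 0.00287). With median centring it was at 0.10, where the median of all tested probes was 0.15.

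Scaffolds, 14-3-3 proteins, phosphatases and chaperones of RAF, MEK and ERK gave 8 higher and 5 lower genes of 20 tested, with a median of 0.11, beside 14.2% higher and 13.6% lower over all tested probes. Among the higher genes, Cdc37 (0.18) and Pea15a (0.16) each had another probe that was called lower (-0.29 and -0.34). The detrended ratios gave 3 higher and 5 lower genes, with a median of 0.02. The highest was Hsp90aa1, a chaperone of RAF kinases (0.36 ± 0.17, adjusted p = 0.00343), followed by Ppp1cb, a phosphatase subunit that acts on RAF (0.19 ± 0.07, adjusted p = 0.00800). After loess Pebp1, the RAF kinase inhibitor protein, was lower (-0.26 ± 0.02, adjusted p = 0.00136), as was its other probe (-0.19). Ywhaz, a 14-3-3 protein, was lower too (-0.26 ± 0.11, adjusted p = 0.00480). With median centring Pebp1 was at 0.31 and Ywhaz at 0.12, where the median of all tested probes was 0.15. Hsp90aa1 had a mean log2 intensity of 16.1, and tested probes above 16 had a median ratio of 0.34, with 89.6% called higher. In the detrended ratios Hsp90aa1 was at 0.15 (adjusted p = 0.0532) and Ppp1cb at 0.10 (adjusted p = 0.101). In the deposited signals Hsp90aa1, Ppp1cb and Ywhaz did not pass (adjusted p = 0.169, 0.158 and 0.0533), and the counts were 2 and 2. Leaving out replicate 4 gave 6 and 2, replicate 1 gave 7 and 3, and replicate 2 gave 5 and 4.

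Downstream, 4 of 16 tested ERK substrates passed at their brightest probe, all of them higher, and the median was 0.05. Among all tested probes 27.8% passed and 14.2% were higher. Elk3 and Ets1 did not pass at their brightest probe. The other Elk3 probe was called higher (0.18), and 1 of the other Ets1 probes (-0.20 to -0.08) lower. Bcl2l11, the cell death protein BIM, which ERK marks for destruction, was at 0.31 ± 0.07 (adjusted p = 0.00131). The transcription factor genes Creb1 (0.23 ± 0.16, adjusted p = 0.0172) and Srf (0.14 ± 0.03, adjusted p = 0.0182) and the kinase gene Mknk1 (0.18 ± 0.04, adjusted p = 0.00619) were higher. The other Mknk1 probes ran from -0.05 to 0.13 and did not pass. Creb1 did not pass in the deposited signals (0.0892) or without replicate 1 (0.0670), nor Srf without replicate 2 (0.0829) or 3 (0.0628).

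Transcripts known to rise when ERK is active gave 6 higher and 2 lower genes of 19 tested, with a median of 0.0068. The 4 largest were Junb (0.35 ± 0.05, adjusted p = 0.000663), Epha4, an ephrin receptor (0.34 ± 0.12, adjusted p = 0.00185), Spry2, which encodes a feedback inhibitor of the cascade (0.25 ± 0.01, adjusted p = 0.00152), and Ier2, an immediate early gene (-0.26 ± 0.08, adjusted p = 0.00277). Spry2 had the ratios 0.24, 0.26, 0.26 and 0.25, the tightest of these. Ier2 was the gene of these 4 that was lower after loess. It lay at 0.07 with median centring, where the median of all tested probes was 0.15. The list thus held genes called in both directions, beside 14.2% higher and 13.6% lower among all tested probes.

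**Figure D5:**
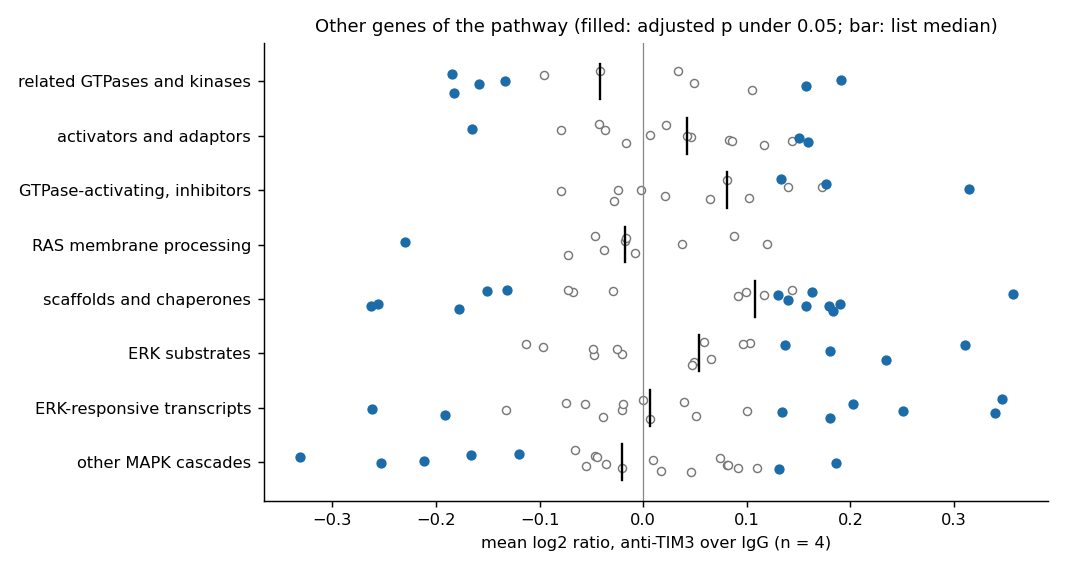
Mean log2 ratio of anti-TIM3 over IgG after loess (n = 4 arrays) for the tested genes of 8 lists around the cascade, 1 point per gene at its brightest tested probe, filled where the adjusted p was under 0.05, with the list median as a bar. Medians lie between -0.04 and 0.11. With median centring no gene passes and most points would lie above 0, as does the median of all tested probes (0.15).

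The melanocyte label held: all 7 melanocyte markers cleared the background in Cy3 and Cy5 on each of the 4 arrays, with summed processed signals of 316770 to 421440 in Cy3 and 371120 to 452030 in Cy5. Of the 7, 5 were called higher (median log2 ratio, 0.41), at a median log2 intensity of 16.5, and 1 was in the deposited signals. Among tested probes above 16 in intensity 89.6% were higher. The T cell markers summed to 240 to 352 in Cy3 and 260 to 373 in Cy5, the macrophage markers to 701 to 1173 and 745 to 1340, the fibroblast markers to 1035 to 6449 and 1107 to 7276, and the endothelial markers to 2729 to 3540 and 2299 to 2926. Of the tested ones, 1 of 4 T cell markers was higher (Lck), 2 of 5 macrophage markers were higher (Lyz2 and Tyrobp) and 1 lower (Cd14), 2 of 5 fibroblast markers were higher (Col1a1 and Col3a1) and 1 of 2 endothelial markers was lower (Eng), after loess; with median centring Eng lay above 0 and Col3a1 below. After loess 27.8% of all tested probes passed, in either direction. Background was cleared in both channels on all 4 arrays by 3 of 6 T cell and 3 of 7 macrophage markers. The same held for 2 of 6 fibroblast and 1 of 5 endothelial markers. Cd3g, Adgre1, Itgam, Dcn and Pecam1 cleared it in neither channel on any array. With IgG, Col3a1 cleared it on 0 arrays and Cd14 on 1, while with the antibody each did on all 4. Their calls thus rest on a filter that accepts either channel. Under the stricter filter, which requires both channels on each array, neither probe was tested. The fibroblast markers then counted 1 higher and the macrophage markers 0 lower. In the detrended ratios both of these counts were 0. The part of these markers in the members' ratios was not tested.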

How the data were processed

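The deposited scanner files hold the linear intensity of each spot in both channels, which per the file headers came from Agilent Feature Extraction 9.5.1.1 (version 9 per the submitters' processing notes). The deposited log10 ratios of Cy5 over Cy3 were made by that software from detrended, dye-normalised signals per the file headers, and the value table equals them.

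Mean signals were corrected with the median local background (normexp, offset 50) and normalised within arrays by loess (limma 3.58.1, R 4.3.3), with control spots at weight 0, outlier spots dropped and replicate spots averaged. Probes were kept if Cy3 or Cy5 was well above background on 3 or more of the 4 arrays, and tested against 0 (lmFit, eBayes, two-sided; Benjamini-Hochberg over 26545 probes, threshold 0.05). Both channels of an array are the same passage per the labels, so the ratio holds the pairing. Scripts were tested on simulated data.

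A list gene was represented by its brightest tested probe. Other probes of some list genes passed in the other direction, or passed where the brightest did not. Named were all member probes, up to 4 passing genes per list with the largest absolute ratio, and the 3 genes nearest to the member probes with the highest and the lowest passing ratio. Members and lists were chosen with earlier results of these data known. Symbols come from RefSeq (GRCm38.p6), where 22951 probes matched by accession, 124 by another listed accession, 6582 by symbol and 3077 by synonym, and otherwise (8440) from the files, as do coordinates (mm7). Some genes are not reported here. Alternatives changed the background, normalisation, dim-probe filter, outlier spots, variance prior, pairing, base composition and replicates.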

Additional observations from a re-analysis of the deposited data

How the results depend on the processing

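Precision is limited by the number of arrays, and the constant added at background correction draws dim ratios towards 0 (Araf A_52_P673489, 0.22 with 50 and 0.28 with 10). Of the values of single member probes over all alternatives, 154 kept direction and side of the threshold, 24 lost the call with direction kept, 2 gained it and 14 changed sign. Of these 14, 4 were from probes that had passed, and these lost the call too. Median centring turned those 4, Nras A_51_P396273 (0.054), Araf A_51_P301259 (0.27) and Mapk3 (0.14 and 0.19), and among probes that had not passed Nras A_52_P649296 (0.21), Map2k1 (0.30), Map2k2 (0.33) and Braf A_51_P370226 (0.16), A_51_P403760 (0.23), A_52_P1092136 (0.073) and A_52_P39724 (-0.0039). Braf A_52_P39724 also turned in the authors' processed signals (-0.053), and ran from -0.040 without replicate 3 to 0.041 without replicate 4, and Map2k2 turned in the detrended ratios (0.017). Median centring left no calls: 0 probes higher and 0 lower over all tested, and 0 and 0 members, with 968 and 38 probes, and 0 members, at an unadjusted p under 0.05 (limma). Its ratios varied over arrays with a median SD of 0.47, against 0.07 after loess. The median of all tested probes was 0.15 with median centring, against 0.0060 after loess. Fitting the channels separately, with no replicate block, gave 330 higher and 252 lower probes and 0 and 0 members, with Nras A_51_P396273 at an adjusted p of 0.0502. The deposited processed signals gave 2382 lower probes in all, and 1 higher and 2 lower members. With an offset of 10 the members counted 0 higher and 2 lower, and with trends on intensity and base counts removed 0 higher and 3 lower. With a replicate left out the counts over all tested probes ran from 2142 to 3515 higher and from 2080 to 2736 lower. Those of members ran from 0 to 1 higher (0 without replicate 3 or 4) and from 1 to 4 lower (1 without replicate 1 or 4). The cause of these changes was not tested. The stricter filter (Cy3 and Cy5 both above background on each array), no filter, keeping outlier spots and an intensity-dependent robust prior changed no member's call; 1 Braf probe was absent under the stricter filter.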

Other observations

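The parallel MAP kinase cascades, which carry stress signals through JNK, p38 and ERK5 and share the layout of RAF, MEK and ERK, gave 2 higher and 5 lower genes of 21 tested, with a median log2 ratio of -0.02. Over all tested probes 14.2% were higher and 13.6% lower. The lowest was Mapk12, a p38 kinase gene, with ratios of -0.36, -0.28, -0.25 and -0.45 and a mean of -0.33 ± 0.09 (SD, n = 4; limma, adjusted p = 0.00130), and its other probe was lower too (-0.28). Map3k11, a kinase upstream of JNK, was at -0.25 ± 0.12 (adjusted p = 0.00639). Map2k5, the activator of ERK5, was at -0.21 ± 0.15 (adjusted p = 0.0221), with replicates 1 and 4 the lowest, and did not pass without replicate 1 (0.0829), without replicate 4 (0.0854) or in the deposited signals (0.0633). These 3 stayed below 0 with median centring (-0.05, -0.01 and -0.06, none past the threshold), where the lower Nras, Araf and Mapk3 probes were above 0. Map3k2, which activates the ERK5 and JNK cascades, was higher (0.19 ± 0.07, adjusted p = 0.00858). In the deposited signals the list counted 1 higher and 3 lower, and leaving out replicate 4 gave 1 and 2, replicate 1 gave 1 and 3, and replicate 2 gave 1 and 4.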
